A study of Mus musculus with 2 samples.

Results

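Bile acid transport and sensing in the fetal liver was described through 10 genes chosen by name from what they are known to do. Earlier results of these data were known when they were chosen. They are Slc10a1, Slco1b2, Abcb11, Abcb4, Abcc2, Nr1h4, Nr0b2, Fgfr4, Klb and Baat, and all 10 were found among the 43346 mouse gene identifiers of the tables, of which 21474 are protein-coding. The RNA was total RNA from the whole liver of B6NCrl mouse embryos at embryonic day 12.5, with both sexes pooled and no treatment or allele named in the labels. Replicate 1 was 1 library from a pool of 120 embryos and replicate 2 was 1 library from a pool of 88 embryos. These 2 libraries form 1 group, so levels, their order and the difference between the pools can be described, and no condition can be compared. An SD over 2 pools speaks for pools of many embryos and not for the spread between single embryos.

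In the adult liver, hepatocytes take bile acids from the blood across the sinusoidal membrane, join newly made or returning bile acids to taurine or glycine, and pump them across the canalicular membrane into bile together with phospholipid. Bile acids inside the cell bind the nuclear receptor FXR, which raises the pump genes and the gene of the repressor SHP. In the intestine FXR raises the hormone FGF15, which reaches the hepatocyte receptor FGFR4 and its partner beta-Klotho and lowers bile acid synthesis.

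The export genes Abcb4 and Abcc2 and the hormone receptor genes Klb and Fgfr4 were the highest, and the uptake and conjugation genes lay below 1 TPM. Levels are TPM, a scaled share of all transcripts in a library that takes gene length into account and allows genes to be set side by side. A gene was called detected at a TPM of at least 1 in both libraries. Of the 10 genes, 6 were detected (Abcb4, Klb, Abcc2, Fgfr4, Nr1h4 and Abcb11), beside 54.5% of all protein-coding genes. The median of the 10 genes was 1.87 TPM, beside 2.02 TPM over all 21474 protein-coding genes. Among the 11696 protein-coding genes that were detected the median was 14.2 TPM. Of the 6 detected genes here, only Abcb4 lay above it. The genes that were not detected (Nr0b2, Slc10a1, Baat and Slco1b2) lay under the limit of 1 TPM and so below this median as well. In whole tissue, fewer cells of a type and less RNA per cell cannot be told apart.

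The tissue label was set against marker genes. All 15 hepatoblast markers (among them Alb, Afp and Hnf4a) were detected, with a summed level of 14590 TPM in replicate 1 and 14214 TPM in replicate 2. All 8 erythroid markers were detected as well and summed to 155286 and 158612 TPM, almost all of it from the globin genes Hba-a2 (mean 106938 TPM) and Hbb-bs (mean 47310 TPM). The marker sums are of gene TPM, which includes transcripts not annotated as coding. On coding transcripts alone Hbb-bs had 15270 and 15726 TPM. The means of the remaining erythroid markers ran from 121 TPM (Epor) to 819 TPM (Slc4a1). The other cell type lists were lower. Stellate and mesenchymal markers (7 of 7 detected) summed to 417 and 420 TPM, macrophage markers (7 of 8) to 223 and 226 TPM, endothelial markers (7 of 7) to 221 and 201 TPM, and cholangiocyte markers (6 of 7) to 19.8 and 16.6 TPM. The macrophage marker Vsig4 had 0 and 2 reads and the cholangiocyte marker Cftr 6 and 5 reads. The part of each cell type in the levels below was not tested. Expected counts, the estimated reads assigned to genes, summed to 37562400 and 34730000 in the libraries.

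**Figure D1:**
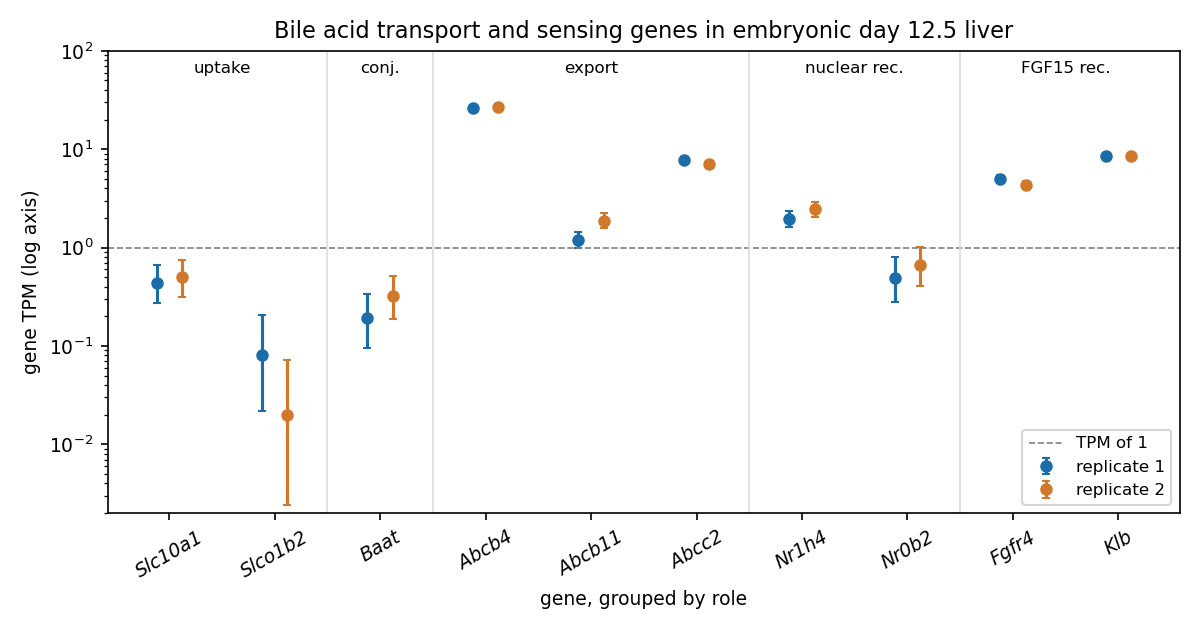
Level of each of the 10 genes (gene TPM, log axis) in replicate 1 and replicate 2, grouped by role. Bars are exact 95% Poisson intervals of the whole gene's expected count, scaled to TPM, for counting error only. They are too narrow for Abcb11 and Abcc2, where part of the TPM rests on few reads of short transcripts (for Abcb11-203, 8.83 and 17.0 reads). Abcb4 stands at 26.0 and 27.1 TPM, and Slc10a1, Slco1b2, Baat and Nr0b2 lie under the dashed line at a TPM of 1.

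Both genes of sinusoidal uptake were under the detection limit. Slc10a1 (ENSMUSG00000021135.7, chr12:80953183-80968705 in mm10, minus strand) encodes NTCP, the sodium-coupled carrier that takes up most conjugated bile acids in the adult. It had 0.44 TPM from 22 reads in replicate 1 and 0.50 TPM from 23 reads in replicate 2, a mean of 0.47 ± 0.0424 TPM (SD, n = 2). Counting intervals ran from 0.276 to 0.666 TPM and from 0.317 to 0.750 TPM, so Slc10a1 had reads in both pools and stayed below 1 TPM in both.

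Slco1b2 (ENSMUSG00000030236.8, chr6:141629518-141686646, plus strand) encodes OATP1B2, a sodium-independent carrier of unconjugated bile acids and drugs. It had 4 reads (0.08 TPM) in replicate 1 and 2 reads (0.02 TPM) in replicate 2, the lowest level of the 10 genes. A floor of 3 reads corresponds to 0.0297 and 0.0321 TPM on the coding model Slco1b2-201. By reads, replicate 1 lay just above the floor and replicate 2 below it. Slco1b2-201 itself had 0.03 and 0.02 TPM. In replicate 1 the short retained-intron model Slco1b2-202 was given 57.1% of the gene's TPM from 0.49 expected reads, and in replicate 2 all of it went to the coding model Slco1b2-201. A share built on less than 1 read describes the assignment and not the gene.

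The other uptake genes of the liver were low too. None of the 6 other uptake transporters was detected, and their median was 0.015 TPM. Slco2b1 was highest at 0.32 ± 0.0990 TPM (SD, n = 2), followed by Slc10a5 at 0.18 ± 0.0141 TPM. Slc22a7 had 0 and 1 read, and Slco1a1 and Slco1a4 had no reads in either library.

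Conjugation was represented by Baat (ENSMUSG00000039653.5, chr4:49489422-49506557, minus strand), whose enzyme joins activated bile acids to taurine or glycine. Baat had 0.19 TPM from 11 reads in replicate 1 and 0.32 TPM from 17 reads in replicate 2 (mean 0.255 ± 0.0919 TPM, SD, n = 2). All of these reads were assigned to Baat-201, and the second coding model Baat-202 was at 0. Baat lay below both libraries of Slc10a1 and above both libraries of Slco1b2, although its counting intervals overlapped those of both neighbours in at least 1 library.

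Of the 5 other activation and conjugation genes, 3 were detected. Acot8, a peroxisomal thioesterase that releases bile acids from coenzyme A, had 18.9 ± 0.742 TPM (SD, n = 2), and Sult2a8, a sulfotransferase, had 2.23 ± 0.431 TPM. Slc27a5, which attaches coenzyme A to returning bile acids in the step before Baat, had 1.70 and 1.44 TPM. Acnat1 (0.235 ± 0.120 TPM) and Acnat2 (0.185 ± 0.0212 TPM), relatives of Baat, were low in both libraries. Thus the gene of the activating enzyme was above the detection limit in both pools and the gene of the conjugating enzyme below it in both.

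All 3 canalicular exporters were detected, and they covered a wide range. Abcb4 (ENSMUSG00000042476.8, chr5:8893717-8959231, plus strand) encodes MDR2, the transporter that delivers phosphatidylcholine to bile and so shields membranes from bile acids. It had 26.03 TPM from 3257 reads in replicate 1 and 27.12 TPM from 3141 reads in replicate 2 (mean 26.6 ± 0.771 TPM, SD, n = 2). Abcb4 was the highest of the 10 genes and lay above 66.1% of detected protein-coding genes. Its pool values differed by little against the distance to the next gene, Klb, which it exceeded 3.03-fold and 3.21-fold. Alb, the secreted albumin of hepatocytes and hepatoblasts, stood 34.1 ± 0.583-fold (SD, n = 2) above Abcb4.

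Abcc2 (ENSMUSG00000025194.5, chr19:43782192-43840740, plus strand) encodes MRP2, which exports glutathione, glucuronide and sulfate conjugates, bilirubin glucuronides among them. Its gene level was 7.68 TPM from 1133 reads in replicate 1 and 7.10 TPM from 1090 reads in replicate 2 (mean 7.39 ± 0.410 TPM, SD, n = 2). Abcb11 (ENSMUSG00000027048.11, chr2:69238282-69342616, minus strand) encodes BSEP, the pump that carries bile salts themselves into bile. Its gene level was 1.19 TPM from 112 reads in replicate 1 and 1.87 TPM from 130 reads in replicate 2 (mean 1.53 ± 0.481 TPM, SD, n = 2). The phospholipid transporter gene was thus 21.9-fold and 14.5-fold above the bile salt pump gene, and 3.39-fold and 3.82-fold above Abcc2. In both libraries the order was Abcb4, Abcc2, Abcb11, with no overlap of their counting intervals. These intervals scale the whole gene count and are too narrow for Abcc2 and Abcb11, whose TPM rests in part on short transcripts (below).

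The promoters of the highest and the lowest of these exporters are shown because they differ widely in CpG content. Each window runs from 250 bases before the transcript start to 50 after it, 5′ to 3′ on the gene's strand, from RefSeq on GRCm38.p6 (the mm10 assembly). The windows are chr5:8893471-8893770 for Abcb4 and chr2:69342567-69342866 for Abcb11, and capitals mark CG dinucleotides.
Abcb4: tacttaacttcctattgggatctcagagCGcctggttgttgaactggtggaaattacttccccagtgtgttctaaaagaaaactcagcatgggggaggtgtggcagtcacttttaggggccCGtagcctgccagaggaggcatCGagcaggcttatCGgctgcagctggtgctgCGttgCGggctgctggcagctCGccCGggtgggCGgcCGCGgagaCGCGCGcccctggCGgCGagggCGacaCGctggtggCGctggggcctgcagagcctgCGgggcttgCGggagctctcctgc
Abcb11: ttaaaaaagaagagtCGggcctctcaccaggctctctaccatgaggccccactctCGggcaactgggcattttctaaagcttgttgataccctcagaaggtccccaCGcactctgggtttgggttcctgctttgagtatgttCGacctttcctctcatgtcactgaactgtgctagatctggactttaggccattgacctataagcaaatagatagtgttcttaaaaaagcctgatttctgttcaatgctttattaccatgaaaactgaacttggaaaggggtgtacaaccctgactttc
The Abcb4 window held 21 CG dinucleotides and the Abcb11 window 4. Over all 32851 RefSeq promoter windows of this length the median was 7, with quartiles of 3 and 20. Abcb4 exceeded 75.2% of the windows and Abcb11 exceeded 31.4%. Among the exporters, the Abcc2 window held 1, fewer than the Abcb11 window, and Abcc2 had the higher level. Over all genes with a window (counts below), Abcb4 held the most and had the highest level. Slco1b2 held the fewest and had the lowest level. Whether CpG content bears on levels was not tested.

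A RefSeq window was found for 9 of the 10 genes (10 windows, since Slc10a1 has a pair of starts); Baat had none. Fgfr4 held 20 CG dinucleotides, Klb 10, Nr1h4 7, Slc10a1 6 and 2, Nr0b2 3 and Slco1b2 0. The nuclear receptor hexamer AGGTCA, searched on both strands, was present in 5 of these 10 windows (Abcb11, Abcc2, Nr1h4, 1 window of Slc10a1, and Slco1b2) and in 16.3% of all promoters. The letters TATAAA, on either strand, were present in 3 of the 10 windows (Nr0b2, Slc10a1 and Slco1b2) and in 13.6% of all promoters. No relation of levels to a motif was tested, because presence of letters shows no binding.

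FXR is known to bind inverted repeats of that hexamer with 1 base between them, so the arrangement is shown where it was found. The exact form AGGTCANTGACCT occurred in 3 of 32851 promoters (0.00913%) and in none of the 10 windows. A form with the fourth base left free, AGGNCANTGACCT, was searched after the Abcb11 promoter had been read, so its presence there was chosen. It occurred in 12 promoters (0.0365%), among them Abcb11 at chr2:69342667-69342679, 63 bases before the start, and Slco1b2 at chr6:141629430-141629442, 88 bases before the start. The windows below carry the match in capitals, which overlaps the AGGTCA match of the same promoter on the opposite strand.
Abcb11 repeat: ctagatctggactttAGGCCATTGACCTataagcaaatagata
Slco1b2 repeat: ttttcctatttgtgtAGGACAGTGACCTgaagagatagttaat
Abcb11 stood at 1.53 TPM and Slco1b2 at 0.05 TPM, and whether the repeat bears on these levels was not tested.

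The levels of Abcb11 and Abcc2 rested in part on short transcripts. A short transcript with few reads receives a large TPM, so the share of TPM and the share of reads were set side by side. In Abcb11 the full-length coding model Abcb11-202 (4893 bases) held 103 reads in replicate 1 and 113 in replicate 2, which is 92.1% and 86.9% of the gene's reads. The processed transcript Abcb11-203 (648 bases) held 8.83 and 17.0 reads, and these gave it 42.9% and 56.7% of the gene's TPM. The transcript that led by TPM therefore differed between the libraries, Abcb11-202 in replicate 1 and Abcb11-203 in replicate 2.

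Abcb11-203 lies wholly inside the last of the 28 exons of Abcb11-202 (chr2:69238282-69239284) and shares none of its coding bases. The gene TPM of 1.19 in replicate 1 was made of 0.68 TPM on Abcb11-202 and 0.51 TPM on Abcb11-203, and that of 1.87 in replicate 2 of 0.81 and 1.06 TPM. On coding transcripts alone Abcb11 had a mean of 0.745 ± 0.0919 TPM (SD, n = 2), under the detection limit in both libraries. The authors' posterior SD of the count, a score for how firmly reads could be assigned, was 19.4 and 14.0 reads for Abcb11-202 and 2.03 and 2.17 reads for Abcb11-203. The other coding models, Abcb11-201 and Abcb11-204, were at 0 with posterior SDs of 9.23 to 15.2 reads, so the split among the 3 long models was loose.

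Abcc2 showed the same gap between TPM and reads in both libraries. Abcc2-201 (8027 bases) held 90.7% and 94.9% of the reads but 53.6% and 63.2% of the TPM. The retained-intron model Abcc2-203 (607 bases) held 3.12% and 2.36% of the reads and 28.8% and 24.5% of the TPM. Of the bases of Abcc2-203, 531 lie in exons and coding sequence of Abcc2-201. Abcc2-202, a coding model of 1926 bases within the last of the 32 exons of Abcc2-201, held 15.4% and 6.35% of the TPM. It shares none of the coding bases of Abcc2-201. On coding transcripts alone Abcc2 had 5.30 and 4.93 TPM.

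**Figure D2:**
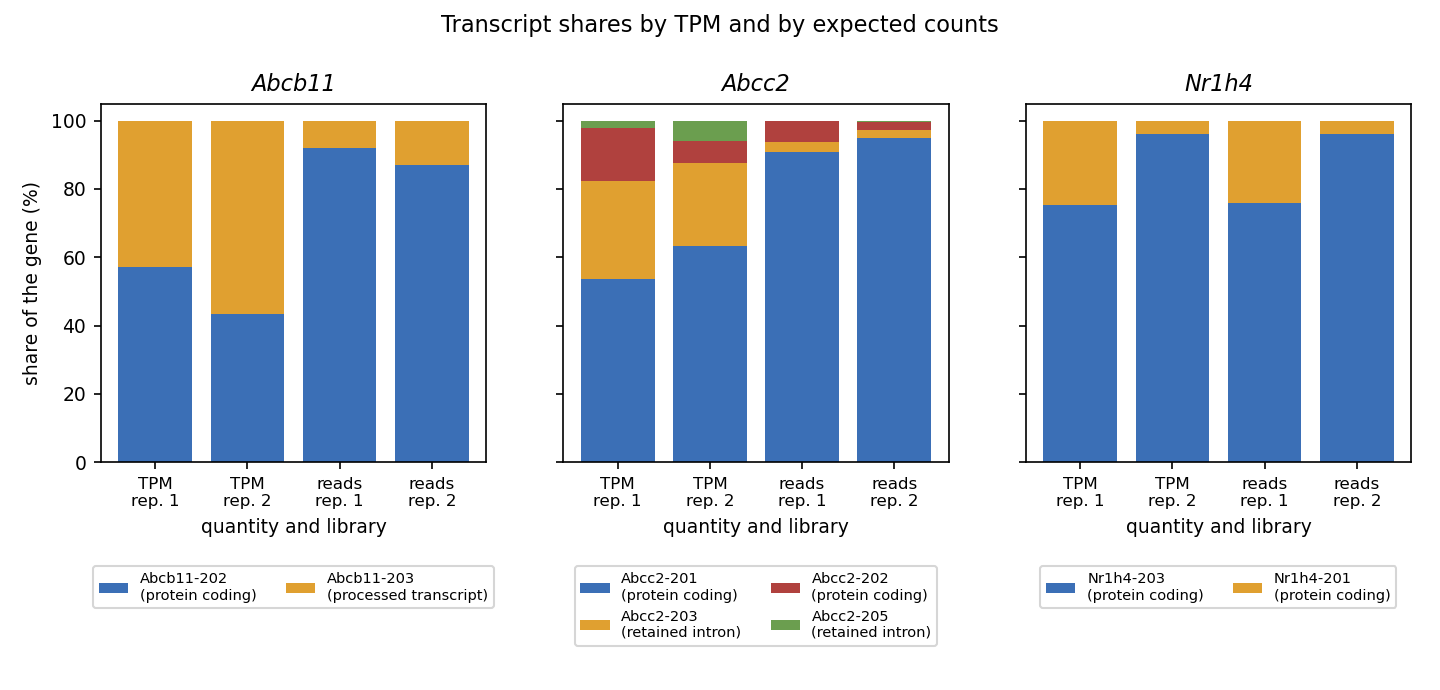
Share of each gene (percent) held by each transcript with a TPM above 0, by TPM (left pair of bars) and by expected counts (right pair), in replicate 1 and replicate 2. Abcb11-203 takes 42.9% and 56.7% of the TPM of Abcb11 on 7.88% and 13.1% of its reads, whereas the Nr1h4 shares are nearly the same by either quantity.

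Among detected genes with several transcripts, the top transcript differed between the libraries in 8.44%, and in 1 of the 4 such genes here (Abcb11; the others are Abcc2, Fgfr4 and Nr1h4). Of all detected protein-coding genes with transcript types, 2.81% fell under a TPM of 1 in a library when only coding transcripts were counted, and 1 of the 6 detected genes here did (Abcb11). The median coding share of TPM over 8625 detected coding genes with several transcripts was 92.9% and 92.8%. Abcb11 had 57.1% and 43.3%, and Abcc2 had 69.0% and 69.5%. By reads the median was 97.0% in both libraries, Abcc2 had 96.7% and 97.1%, and Abcb11 had 92.1% and 86.9%.

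As a further measure, all reads of a gene were placed on its leading coding transcript, a choice made after the shares had been seen. Abcb11 then had 0.742 and 0.931 TPM, and Abcc2 had 4.54 and 4.72 TPM. The distance from Abcb4 to Abcb11 became 35.1-fold and 29.1-fold by this measure, and 38.3-fold and 33.5-fold on coding transcripts, wider than by gene TPM. Abcb4 has 1 transcript model, so its level does not depend on the measure.

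**Figure D3:**
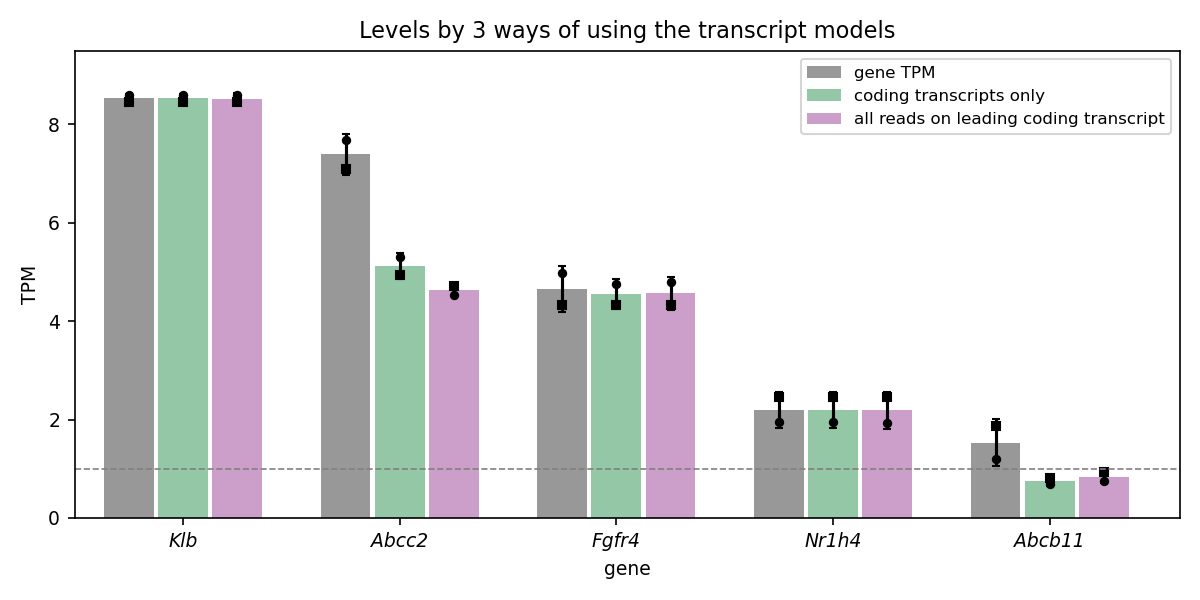
Mean TPM of 5 detected genes by 3 measures, with bars for the mean of 2 libraries, error bars for the SD (n = 2), circles for replicate 1 and squares for replicate 2; the dashed line is a TPM of 1. Abcc2 falls from 7.39 to 5.12 and 4.63 TPM and Abcb11 from 1.53 to 0.745 and 0.836 TPM, while Klb and Nr1h4 keep their levels.

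Other transporters of the canalicular membrane and of lipids were mostly low. Of these 8 genes, 2 were detected. Abcg2, which exports porphyrins and sulfate conjugates and is also expressed by red cell precursors, had 173 ± 4.19 TPM (SD, n = 2), 6.51 ± 0.347-fold above Abcb4. Abca1, a cholesterol exporter, had 8.64 ± 0.233 TPM. Atp8b1, the aminophospholipid flippase of the canalicular membrane, stood at 1.11 and 0.74 TPM, on either side of the limit. Abcb1b (0.26 ± 0.0141 TPM) followed, and Npc1l1 (0.16 ± 0.0283 TPM) and Abcg5 (0.175 ± 0.0778 TPM) were the lowest.

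Of 5 exporters of the sinusoidal membrane, 3 were detected. Abcc3 (3.65 ± 0.170 TPM, SD, n = 2) and Abcc4 (2.77 ± 0.255 TPM) can return bile acids to the blood, whereas Abcc6 (4.44 ± 0.240 TPM) is known for cellular ATP release and not as a bile acid exporter. Abcc3 lay 2.97-fold and 2.02-fold above Abcb11 by gene TPM, so the blood-side exporter was higher than the bile salt pump in both libraries. Slc51a had 9 and 7 reads, and Slc51b, its partner in the organic solute transporter, had 0 and 4 reads.

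Genes that build the canalicular membrane were mostly detected. Of 12 genes of membrane trafficking, polarity and canalicular surface, 11 passed the detection limit, and the median was 9.29 TPM. Rab11a, which guides recycling vesicles to the apical membrane, had 206 ± 4.91 TPM (SD, n = 2). Rdx, the actin linker radixin that anchors MRP2, had 71.9 ± 1.48 TPM, followed by the scaffold gene Slc9a3r1 (65.3 ± 0.601 TPM) and Ezr (61.0 ± 2.65 TPM). The lowest were Myo5b, the motor for apical vesicles, at 1.45 ± 0.226 TPM, and Ceacam1, a canalicular surface glycoprotein, at 0.92 and 1.04 TPM. On coding transcripts alone Myo5b had 0.73 and 0.74 TPM, under the detection limit in both libraries. Most of these genes serve other cell types as well.

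Of the nuclear receptors, FXR's gene was detected and SHP's was not. Nr1h4 (ENSMUSG00000047638.11, chr10:89454234-89533585, minus strand), which encodes FXR, had 1.94 TPM from 116 reads in replicate 1 and 2.46 TPM from 137 reads in replicate 2 (mean 2.20 ± 0.368 TPM, SD, n = 2). Nr0b2 (ENSMUSG00000037583.2, chr4:133553376-133556536, plus strand), which encodes SHP, a receptor without a DNA-binding domain that represses other receptors, had 0.49 TPM from 16 reads and 0.66 TPM from 20 reads (mean 0.575 ± 0.120 TPM). Nr1h4 exceeded Nr0b2 3.96-fold in replicate 1 and 3.73-fold in replicate 2. Hnf4a, the hepatocyte receptor that maintains many bile acid genes, was 6.91-fold and 5.32-fold above Nr1h4.

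The transcripts of Nr1h4 differ in their first exon and in a short coding insert, and FXR isoforms are known to differ in these places. Nr1h4-203 and Nr1h4-202 carry 12 bases (4 codons, chr10:89483372-89483383) at the end of exon chr10:89483372-89483524 that Nr1h4-201 lacks. The sequences run 5′ to 3′ on the gene's strand, with 60 bases on each side of the junction taken from the GENCODE M21 transcripts on mm10, and capitals mark the insert, which Nr1h4-201 does not have.
Nr1h4-203: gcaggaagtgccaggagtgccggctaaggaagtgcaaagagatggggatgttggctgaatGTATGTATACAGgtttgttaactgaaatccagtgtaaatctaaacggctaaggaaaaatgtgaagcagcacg
Nr1h4-201: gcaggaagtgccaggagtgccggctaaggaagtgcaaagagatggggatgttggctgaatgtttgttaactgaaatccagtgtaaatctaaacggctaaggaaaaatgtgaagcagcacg
The model with the insert, Nr1h4-203, led in both libraries. It held 88.0 reads (75.3% of TPM) in replicate 1 and 132 reads (95.9%) in replicate 2.

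Nr1h4-201 held 28.0 reads (24.7% of TPM) in replicate 1 and 5.27 reads (4.07%) in replicate 2. The posterior SD of its count was 7.09 and 5.34 reads, so the count lay well above its posterior SD in replicate 1 and about level with it in replicate 2. Nr1h4-202 was at 0 in both libraries. Nr1h4-203 starts 26936 bases upstream of Nr1h4-201, with a first exon at chr10:89533403-89533585 against chr10:89506508-89506649. No transcript in the tables joins the upstream start to the exon without the insert, so use of the start and use of the insert cannot be told apart from these shares. The RefSeq promoter window of Nr1h4 lies at the downstream start.

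Partners of FXR and other regulators of bile acid genes were mostly detected (13 of 15), and their median was 4.53 TPM. Highest were the oxysterol receptor gene Nr1h2 at 45.4 ± 0.926 TPM (SD, n = 2), the chromatin remodeller Smarca4 at 40.9 ± 0.177 TPM, and Rxrb, a dimer partner of FXR, at 25.1 ± 1.40 TPM. Foxa3, a liver factor of the forkhead family, had 22.7 ± 0.863 TPM. Rxra, the main dimer partner in adult liver, was 7.14-fold and 7.23-fold below Rxrb. The lowest were the xenobiotic receptor gene Nr1i3 at 0.255 ± 0.0778 TPM and the vitamin D receptor gene Vdr at 0.485 ± 0.120 TPM. Among 3 membrane receptors of bile acids, S1pr2 had 6.54 ± 0.191 TPM, Gpbar1, which encodes TGR5, had 1.07 and 1.34 TPM, and Chrm3 had 10 and 12 reads (0.14 ± 0.0283 TPM).

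Both parts of the hepatocyte FGF15 receptor were detected. Klb (ENSMUSG00000029195.7, chr5:65348314-65384007, plus strand), which encodes the co-receptor beta-Klotho, had 8.60 TPM from 911 reads in replicate 1 and 8.46 TPM from 829 reads in replicate 2 (mean 8.53 ± 0.0990 TPM, SD, n = 2). Fgfr4 (ENSMUSG00000005320.9, chr13:55152640-55168759, plus strand), the receptor tyrosine kinase gene, had 4.98 TPM from 487 reads and 4.33 TPM from 407 reads (mean 4.66 ± 0.460 TPM). Klb was higher than Fgfr4 in both libraries, by 1.73-fold and 1.95-fold. Fgfr4-201, the only coding model, held 95.6% of the gene's TPM in replicate 1 and 100% in replicate 2.

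Fgfr4 was not the highest of the FGF receptor genes in this whole tissue. Fgfr2 exceeded it 3.44-fold and 3.81-fold, Fgfr1 exceeded it 1.43-fold and 1.51-fold, and Fgfr3 lay 1.19-fold and 1.10-fold below it. Which cells held each receptor was not tested. Of 10 FGF15 signalling genes matched by symbol, 8 passed the detection limit, and the median was 9.88 TPM. The adaptor genes Grb2 (72.6 ± 6.50 TPM, SD, n = 2) and Shc1 (52.1 ± 3.89 TPM) were highest, followed by Fgfr2 (16.8 ± 0.438 TPM) and the phosphatase gene Ptpn11 (13.5 ± 0.424 TPM). The ligand gene Fgf15 had 2 and 0 reads, and Kl, the other Klotho gene, had 2 and 6 reads.

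Intestinal partners of the cycle lay under the detection limit. None of 6 intestinal bile acid genes was detected. Slc10a2, the ileal uptake carrier, and Fabp6, the ileal bile acid binding protein, had no reads in either library, which at 3 reads allows up to 0.0623 and 0.0673 TPM for Slc10a2 and 0.251 and 0.271 TPM for Fabp6. The gut transcription factor gene Cdx2 had 2 and 0 reads. Vil1, a microvillus protein of gut and bile duct, was the highest of the list at 0.70 and 0.81 TPM, and Slc51a, listed above, came next.

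Bile acid synthesis genes ranged from abundant peroxisomal enzymes to a Cyp7a1 of few reads. Of 16 genes 9 passed the detection limit, and the median was 2.13 TPM. Scp2, a peroxisomal thiolase and sterol carrier gene, had 189 ± 0.799 TPM (SD, n = 2), Slc27a2 had 48.0 ± 2.11 TPM, the side-chain enzyme gene Hsd17b4 had 35.2 ± 0.495 TPM and Hsd3b7, which acts on the sterol ring, had 25.5 ± 1.12 TPM. At the other end, Akr1c6 had 2 and 7 reads (0.145 ± 0.0636 TPM) and Cyp7a1, the rate-limiting enzyme of the classic route, had 20 and 21 reads (0.17 ± 0.0141 TPM). In all, 51 of 84 other bile acid genes (60.7%) were detected, near the 54.5% of all protein-coding genes, and 4 had no reads. The same 54.5% is the background for the detected counts of each list above.

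**Figure D4:**
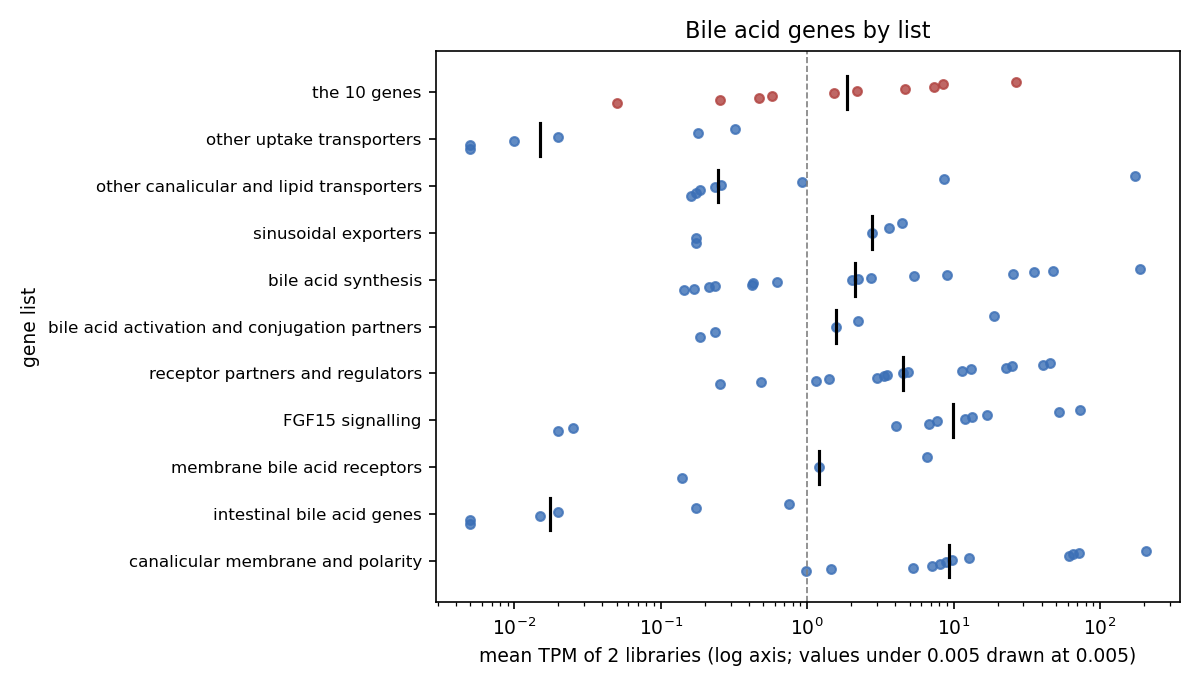
Mean TPM over 2 libraries (log axis) of every gene of each bile acid list; each point is 1 gene, the black bar is the list median, the dashed line is a TPM of 1, and values under 0.005 are drawn at 0.005. The 10 genes (red) have a median of 1.87 TPM, the other uptake transporters 0.015 TPM and the FGF15 signalling genes 9.88 TPM.

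Setting the 10 genes in order of mean TPM gave Abcb4, Klb, Abcc2, Fgfr4, Nr1h4, Abcb11, Nr0b2, Slc10a1, Baat and Slco1b2. Both libraries of each gene lay above both libraries of the next, except that Nr0b2 (0.49 and 0.66 TPM) overlapped Slc10a1 (0.44 and 0.50 TPM). Counting intervals were apart in both libraries for 4 neighbouring pairs, Abcb4 and Klb, Abcc2 and Fgfr4, Fgfr4 and Nr1h4, and Abcb11 and Nr0b2. The short transcripts bear on 2 of these pairs, since the intervals of Abcc2 and Abcb11 do not allow for them. On coding transcripts Abcc2 (5.30 and 4.93 TPM) still lay above Fgfr4 (4.76 and 4.33 TPM) in both libraries. With all reads on the leading coding transcript, Abcc2 had 4.63 ± 0.126 TPM and Fgfr4 4.56 ± 0.330 TPM (SD, n = 2), and their libraries overlapped. On coding transcripts Abcb11 had 0.68 and 0.81 TPM, and the Nr0b2 counting intervals of 0.280 to 0.796 TPM and 0.403 to 1.02 TPM contained these values, so this pair was then not told apart.

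The pools were close for the abundant genes. Differences are log2 ratios of TPM + 0.1, replicate 1 over replicate 2, and intervals are exact 95% Clopper-Pearson intervals of the count ratio, for counting error only. Of the 13017 genes averaging 50 or more expected counts, 47 (0.361%) differed 2-fold or more, and of the 6 genes here that reach this level none did. The median size of the log2 ratio was 0.15 over these 6 genes and 0.08 over the 13017.

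The 4 genes with the most reads had log2 ratios of -0.06 (Abcb4), 0.02 (Klb), 0.11 (Abcc2) and 0.20 (Fgfr4). Nr1h4 had a log2 ratio of -0.33 and Abcb11 of -0.61, both higher in replicate 2. By counts the ratio was 0.783 (0.606 to 1.01) for Nr1h4 and 0.797 (0.613 to 1.03) for Abcb11, so both intervals reached just past 1. The genes with few reads had log2 ratios of -0.37 for Nr0b2, -0.15 for Slc10a1, -0.53 for Baat and 0.58 for Slco1b2, all with wide intervals. Of the 10 genes 4 were higher in replicate 1 and 6 in replicate 2, and the interval included 1 for all 10. Abcb11's TPM ratio lay further from 0 than its count ratio, and its short transcript Abcb11-203 had 8.83 reads in replicate 1 and 17.0 in replicate 2.

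**Figure D5:**
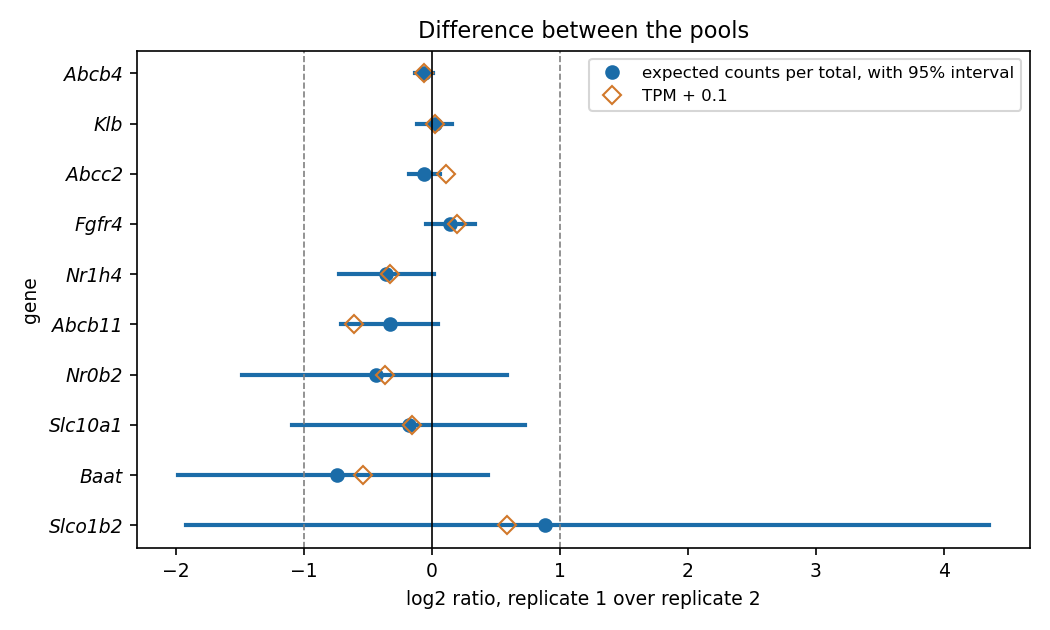
Log2 ratio of replicate 1 over replicate 2 for the 10 genes: circles are expected counts per library total with exact 95% intervals, diamonds are TPM + 0.1, and dashed lines mark 2-fold. Every interval crosses 0, and those of Nr0b2, Slc10a1, Baat and Slco1b2 reach a 2-fold difference.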

How the data were processed

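Total RNA of 2 liver pools was sequenced; per the labels' protocols each library started from 10 ng of RNA longer than 200 bases with spike-ins, and strandedness is not given. Assembly mm10 and annotation M4 were used, per the file headers; how reads were aligned and quantified is not given in the sources used here. Per library, the authors deposited expected counts (estimated reads, not normalized), TPM (spike-ins and tRNA entries included in the total) and FPKM for genes and transcripts. The authors also deposited the percent of a gene's TPM on each transcript, and a posterior SD of the count, used here as a score of assignment. The transcript shares printed were recomputed from transcript TPM.

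Symbols matched 42462 of 43346 gene identifiers. Transcript types, exons and coordinates came from GENCODE M21, on the same assembly as the tables, and are 1-based. Abcb11 overlaps Gm13613 and Gm13614 on the opposite strand, both with 0 reads; the pseudogene Gm17936 inside Abcb4 was not analysed here. Abcb4 was the only one of the 10 genes whose gene counts were not whole (tolerance 0.005). The 2 gene tables were not identical.

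Values are means ± SD over 2 libraries. Poisson and Clopper-Pearson intervals (95%) used rounded expected counts, and since reads were amplified and carry no molecular identifiers, intervals and the floor of 3 reads cover counting error only. Intervals in TPM scale the whole gene count, so they are too narrow where short transcripts with few reads hold much of the TPM. With 1 group no p-value was computed. Pool ratios added 0.1 to TPM, which understates the ratios of low genes. Intervals were tested on simulated Poisson counts, the model they assume. The size rule was tested on scaled simulated counts, not on TPM with 0.1 added. Neither test covers amplification or the spread between pools. Alternatives used edgeR 4.0.16 and DESeq2 1.42.0 in R 4.3.3 for scaling of rounded expected counts; the rest used Python 3.11.15 with pandas 2.3.3 and scipy 1.17.1. The genes named are the 10 genes, and of each other bile acid list the 4 highest, the 2 lowest and those without reads, besides a few named for a comparison with 1 of the 10; transcripts were named at 10% or more of the gene's TPM. Marker lists are given as counts and sums. The values of 1 gene of these lists are not reported here. The genes and lists were chosen with earlier results of these data known.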

Additional observations from a re-analysis of the deposited data

How the results depend on the processing

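Only 2 libraries of 1 group were measured, so no spread between embryos and no condition can be given, and genes with under 50 reads are limited by depth. Genes differing 2-fold or more between the pools numbered 47, and 278, 2 and 1795 with a mean count of at least 10, at least 500 and no filter. Of the 10 genes, 6 reached the main filter, also used with each scaling, and 9, 3 and 10 reached the others. None of the genes so tested differed 2-fold or more. Without a filter, the added 0.1 kept Slco1b2 (0.08 and 0.02 TPM) under 2-fold. TMM and DESeq2 scaling gave 47 again, and spike-in scaling gave 40, of which 12 were higher and 28 lower in replicate 1, against 7 and 40 without it; it shifted all log2 ratios by 0.12 and turned that of Abcb4 from -0.06 to 0.06. Counts per library total, chosen after seeing the data, turned that of Abcc2 from 0.11 to -0.06. Of the 10 genes, 3 were detected at a TPM of at least 5, 6 at 0.5, 9 at 0.1 and 5 on coding transcripts only (chosen after seeing the data), against 6. Of the other bile acid genes, 32 were detected at 5 and 74 at 0.1, against 51. Against the median of all genes with TPM above 0, 5 of the 10 genes lay above, against 1 for detected protein-coding genes. These counts moved by construction, with the limit or the reference set. The share of all protein-coding genes was taken at a TPM of at least 1 only (54.5%). Counts at the other limits therefore have no background beside them and describe the limits alone. Without spike-ins and tRNA entries, Abcb4 rose to 28.1, Klb to 9.02 and Abcc2 to 7.81 TPM. Leaving out 1 of 2 replicates leaves the other library, whose values stand beside each mean.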
